A study of Mus musculus with 6 samples.

Results

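The genes described here encode the proteasome, the protease that degrades ubiquitin-tagged proteins, and were measured by RNA-seq in lung endothelial cells (ECs) of WT and leene-KO mice. They were chosen by name: 48 genes of the counted annotation had a symbol that starts with Psma to Psmg followed by a number, after pseudogenes and the immunoproteasome genes Psmb8 and Psmb9 were set aside. Of these, 47 had at least 60 reads summed over the 6 libraries, out of 47729 genes in the annotation. They comprise 16 genes of the 20S core (Psma and Psmb), 20 genes named after the 19S regulatory particle (Psmc and Psmd), 5 Psme genes, the inhibitor Psmf1 with the assembly chaperones Psmg1 to Psmg4, and Psmc3ip. Psmc3ip matches by its name alone, since it encodes a protein of meiotic recombination and no proteasome subunit. All 47 genes passed edgeR's filter on low counts. The gene left out was Psmb11, the thymus-specific subunit, with 0 reads in each library, where the floor of 3 reads corresponds to between 0.0734 and 0.140 CPM (a gene's reads scaled to the size of its library).

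The comparison was between 3 WT and 3 KO libraries and addresses what the deletion of leene changes in ECs of hypertensive mice. WT mice were of the C57BL6 background, and KO mice carry a CRISPR deletion, in all cells of the body, of the mouse region syntenic to the human lncRNA gene LEENE (LINC00520). All mice of both groups were male, 14 weeks old, fed normal chow and infused with angiotensin II (AngII) at 1000 ng/kg/min by osmotic pump for 2 weeks, so that no library shows cells without AngII. The cells were CD31-enriched lung cells by the labels, whereas the methods name CD144 (VE-cadherin) as the antigen of the magnetic sort. The labels describe pooled cells of 3 mice a group, so each library may hold 1 mouse or several. The n given below are libraries, and p-values measure the spread between these libraries, which may be technical. The leene genes are not among the genes of the counted annotation and were not analysed here, so the genotypes are those of the labels.

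The proteasome is a barrel of stacked rings, the 20S core, capped by regulatory particles. The outer rings are built of alpha subunits (Psma), which gate the entrance, and the inner rings of beta subunits (Psmb), of which Psmb5, Psmb6 and Psmb7 carry the chymotrypsin-like, caspase-like and trypsin-like activities. The 19S particle binds ubiquitin chains, removes them and feeds the unfolded substrate into the core with a ring of ATPases (Psmc). In ECs, as in other cells, the proteasome sets the lifetime of regulatory proteins, among them the inhibitor of NF-kB, and its subunit genes are known to be induced together by the transcription factor NRF1 (Nfe2l1) when proteasome activity is short.

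Total counts were 24464324 to 35184063 reads in the WT libraries and 26159650 to 29189294 in the KO libraries, and the proteasome genes took 0.139% to 0.218% of them in WT and 0.125% to 0.152% in KO. All 15 EC markers were detected in every library, with a summed level of 2440 to 4435 CPM in WT and 2758 to 4441 CPM in KO. Markers of other lung cells were also present. In every library the markers of alveolar type II cells and those of club cells each summed to more than the EC markers. The levels below are therefore those of whole libraries and not of ECs alone. The 5 alveolar type II markers summed to 4934, 46390 and 14404 CPM in WT replicates 1, 2 and 3 and to 36707, 44951 and 36566 CPM in KO replicates 1, 2 and 3. WT replicate 2 thus stood with the KO libraries. Reads of mitochondrial genes made up 54.5% of the counts of WT replicate 3 and 37.4% to 46.2% of those of the other 5 libraries. Where leaving out a library moved a log2 fold change printed below by over 1.5 times, its outermost values with a library left out are given. The 3 club cell markers summed to 15349 to 40401 CPM in WT and 33558 to 56766 CPM in KO, with overlapping groups, and the 8 B cell markers to 11.2 to 23.2 CPM in WT and 78.3 to 83.4 CPM in KO. The part of these markers in the results below was not tested. In bulk libraries, fewer cells of a type and less RNA per cell cannot be told apart.

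No proteasome gene differed between KO and WT at an adjusted p under 0.05 in the quasi-likelihood test of edgeR (Benjamini-Hochberg adjustment over the 14625 genes tested, of which 16, or 0.109%, were called). The lowest adjusted p among the 47 genes was 0.406, and DESeq2 also called 0 of them, against 187 genes (1.21%) over all genes with an adjusted p. At an unadjusted p under 0.05, 1 of the 47 genes passed, Psmd12, where 10.3% of all genes did (4.68% lower and 5.62% higher in KO). The estimates were small and mostly of the same sign. The log2 fold change was below 0 in 40 of 47 genes, against 45.9% of all genes and 52.8% of the 3562 genes within the interquartile range of the members' levels. The median log2 fold change of the 47 genes was -0.12, against 0.03 over all genes and -0.02 over the genes of like level. All 3 KO libraries lay below all 3 WT libraries for 11 of the 47 genes (9.2% of all genes) and above them for 1, Psmf1 (8.59% of all genes). For a gene with 3 libraries against 3, an exact permutation test cannot give a p below 0.1. The members share their libraries and are not independent, so these counts describe the 6 libraries and are not a test of the group.

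The 95% interval of the log2 fold change lay within 0.5 of 0 for 26 of the 47 genes and within 1 of 0 for 45. The plot of log2 fold changes by gene shows these intervals. Proteasome genes also had a lower median spread between replicates than genes of like level, a difference that was not tested. Their median coefficient of variation was 9.85% in WT and 6.71% in KO, against 13.7% and 9.39% over the 3562 genes.

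**Figure D1:**
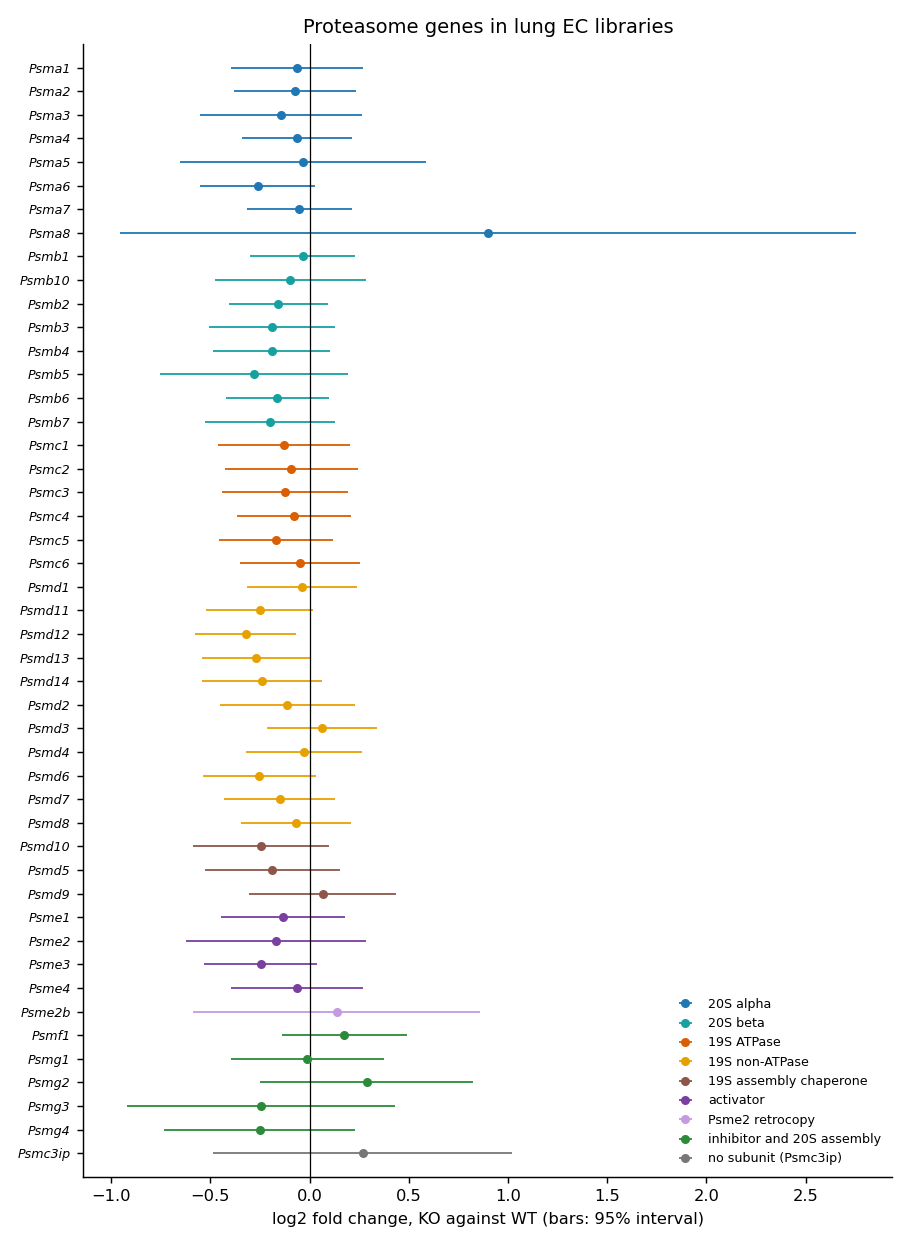
The log2 fold change of each of the 47 genes (x axis, KO against WT, edgeR) is drawn as a point with its 95% interval as a bar and is coloured by class. Points of 40 genes lie below 0, only the interval of Psmd12 excludes 0, and the widest interval is that of Psma8.

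The direction was carried unevenly by the libraries. WT replicate 3, the library with the highest mitochondrial share, held the highest CPM for 27 of the 47 genes and WT replicate 1 for 10. The lowest value was in KO replicate 1 for 17 genes, in WT replicate 2 for 13 and in KO replicate 2 for 10. The summed level of the 47 genes was 1584, 1434 and 1643 CPM in WT replicates 1, 2 and 3 and 1411, 1406 and 1472 CPM in KO replicates 1, 2 and 3. The groups overlapped in this sum, with WT replicate 2 between the KO libraries. Without WT replicate 2 the median log2 fold change was -0.21 and 43 genes were below 0, and without WT replicate 3 it was -0.06 with 36 genes below 0. Leaving out WT replicate 2 raised the calls over all genes to 791 (5.29%), and 0 of the 47 genes were among them. Single genes moved more than the medians. The log2 fold change moved by over 1.5 times or changed sign in 29 of the 47 genes without WT replicate 2, of which 25 grew in size, and in 22 without WT replicate 3, of which 15 shrank. Scaled without the mitochondrial genes, the median was -0.15 and 40 genes were below 0.

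To show the DNA in front of some of these genes, promoters of 39 of the 47 genes (42 promoters) were matched by symbol in the RefSeq promoter table of GRCm38.p6, each with 250 bases before and 50 after the start. They were searched on both strands for the core of the antioxidant response element, TGACNNNGC, which NRF1 and NRF2 bind together with small MAF proteins. The core was found in 6 member promoters (14.3%), those of Psmb5, Psmb6, Psmc6, Psmd9, Psmd12 and Psme4, and in 12.4% of all 32851 promoters. The 250 bases before the start are printed 5′ to 3′ on the gene's strand for 4 of these genes, the catalytic subunits Psmb5 and Psmb6, the assembly chaperone Psmd9, and the gene with the lowest p, Psmd12. Capitals mark the match, which in Psmd12 is on the opposite strand.
Psmb5, chr14:54617996-54618245, minus strand: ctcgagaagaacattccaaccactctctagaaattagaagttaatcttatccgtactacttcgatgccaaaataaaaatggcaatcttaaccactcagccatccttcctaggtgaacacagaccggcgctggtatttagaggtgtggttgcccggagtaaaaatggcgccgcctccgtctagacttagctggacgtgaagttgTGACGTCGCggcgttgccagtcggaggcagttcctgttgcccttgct
Psmb6, chr11:70525107-70525356, plus strand: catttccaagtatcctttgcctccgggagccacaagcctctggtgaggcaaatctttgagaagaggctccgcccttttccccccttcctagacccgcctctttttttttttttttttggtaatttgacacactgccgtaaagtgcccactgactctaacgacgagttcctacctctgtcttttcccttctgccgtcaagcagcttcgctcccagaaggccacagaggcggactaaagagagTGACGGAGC
Psmd9, chr5:123227940-123228189, plus strand: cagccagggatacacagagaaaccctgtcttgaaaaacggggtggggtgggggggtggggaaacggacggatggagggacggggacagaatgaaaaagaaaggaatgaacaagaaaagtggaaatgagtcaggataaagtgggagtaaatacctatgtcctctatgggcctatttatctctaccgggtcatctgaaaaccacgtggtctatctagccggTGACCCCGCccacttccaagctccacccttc
Psmd12, chr11:107479278-107479527, plus strand: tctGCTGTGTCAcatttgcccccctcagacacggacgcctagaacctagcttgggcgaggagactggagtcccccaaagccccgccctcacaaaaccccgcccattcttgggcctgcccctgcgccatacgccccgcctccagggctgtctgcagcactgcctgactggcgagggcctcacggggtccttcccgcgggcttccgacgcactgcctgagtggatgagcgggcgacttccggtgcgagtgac
Counting the base before the start as -1, the match began at position -47 in Psmb5, -9 in Psmb6, -31 in Psmd9 and -247 in Psmd12, where it was the farthest from the start. The RefSeq start of Psmd9 lies inside the longer gene model that was counted, and the counted model of Psmd12 starts within the printed window. The other motifs were searched in the same way. The CCAAT box (CCAAT) was in 13 member promoters (31%) and 37.4% of all promoters. The heat shock element (GAA, any 2 bases, TTC, any 2 bases, GAA) was in 0 of the 42 and in 0.603% of all promoters. The interferon regulatory element (GAAA, any 2 bases, GAAA) was in 5 (11.9%), those of Psmb3, Psmd4, Psmd9, Psme1 and Psmg4, and in 3.44% of all promoters, and the STAT element TTCNNNGAA was in 2 (4.76%) and in 8.3% of all promoters. A match is only a match of letters in this window.

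The 20S core was slightly lower in KO on average, without a gene that passed. Of its 16 genes, 15 had a log2 fold change below 0, with a median of -0.12, and 4 (Psma6, Psmb2, Psmb3 and Psmb6) had groups that did not overlap, against 9.2% of all genes with KO lower. The summed level of the core was 498, 454 and 526 CPM in WT and 437, 447 and 470 CPM in KO, so that WT replicate 2 fell among the KO libraries. Its median was -0.21 without WT replicate 2 and -0.06 without WT replicate 3.

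Among the 8 alpha genes, the median log2 fold change was -0.06, and the 7 genes other than Psma8 lay between -0.26 and -0.03. Psma6, a constitutive ring subunit, was at 45.8, 43.4 and 50.9 CPM in WT and 36.1, 39.2 and 41.6 CPM in KO. Every KO library of Psma6 was below every WT library, with a log2 fold change of -0.26 (SE, standard error, 0.12, adjusted p = 0.511 from edgeR). Psma2, the most abundant alpha gene per kb of exon, was at 38.3, 31.3 and 39.9 CPM in WT and 33.5, 34.2 and 36.3 CPM in KO. Its groups overlapped and its log2 fold change was -0.07 (SE 0.13), or -0.21 without WT replicate 2 and -0.03 without WT replicate 3. Psma8, which replaces Psma7 in the testis, was close to the lower end of detection, with 25, 2 and 22 reads in WT and 34, 19 and 27 reads in KO. That corresponds to 0.612, 0.0587 and 1.03 CPM in WT and 1.46, 0.699 and 0.931 CPM in KO. Psma8 was thus below the floor of 3 reads in WT replicate 2, where that floor was 0.0880 CPM. The groups overlapped, and its log2 fold change of 0.90 (95% interval -0.95 to 2.75, adjusted p = 0.688 from edgeR) was 0.31 without WT replicate 2, 0.53 without KO replicate 1 and 1.54 without WT replicate 3.

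All 8 beta genes had a log2 fold change below 0, from -0.28 to -0.03 with a median of -0.18. Psmb5, the chymotrypsin-like subunit and the target of bortezomib, was at 7.52, 6.69 and 9.18 CPM in WT and 5.8, 7.8 and 5.62 CPM in KO. KO replicate 2 lay within the WT range, and the log2 fold change was -0.28 (SE 0.20, adjusted p = 0.636 from edgeR), with -0.47 without KO replicate 2 and -0.17 without WT replicate 3. Psmb6, the caspase-like subunit, was at 40.9, 39.0 and 36.6 CPM in WT and 33.7, 34.5 and 35.8 CPM in KO. Its groups did not overlap, the nearest libraries being 36.6 and 35.8 CPM, and its log2 fold change was -0.16 (SE 0.11, adjusted p = 0.626 from edgeR). Psmb7, the trypsin-like subunit, was at 35.0, 26.8 and 34.0 CPM in WT and 26, 28.7 and 28.7 CPM in KO. WT replicate 2 was the second lowest of the 6 libraries for Psmb7, whose log2 fold change was -0.20 (SE 0.14). It was -0.35 without WT replicate 2, where its unadjusted p was under 0.05 in edgeR's test and its adjusted p 0.167, and -0.13 without WT replicate 1. Psmb1, which does not carry a catalytic site, was the most abundant of the 47 genes per kb, and its groups overlapped at 49.4, 51.5 and 52.0 CPM in WT and 46.5, 51.5 and 51.3 CPM in KO. Psmb2 was tight within each group, at 33.2, 32.9 and 33.2 CPM in WT and 29.4, 30.6 and 29.1 CPM in KO, and its groups did not overlap (log2 fold change -0.16, SE 0.11). Psmb3 was at 11.9, 13.4 and 14.7 CPM in WT and 11.6, 11.7 and 11.7 CPM in KO, groups that were separate by a small margin.

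The inducible catalytic subunits, which replace the constitutive ones in the immunoproteasome, were compared with their partners within each library, per kb of exon. Psmb10, the inducible partner of Psmb7 and a member by name, was at 37.2, 30.3 and 41.0 CPM in WT and 31.3, 30.6 and 39.6 CPM in KO, for a log2 fold change of -0.10 (SE 0.16), which was -0.25 without WT replicate 2 and -0.02 without WT replicate 3. The Psmb10 to Psmb7 ratio was 3.05 ± 0.194 (SD, n = 3) in WT and 3.28 ± 0.423 (SD, n = 3) in KO. Psmb8 had a log2 fold change of -0.11 (-0.26 without WT replicate 2 and -0.05 without WT replicate 1), and its ratio to Psmb5 was 2.10 ± 0.225 in WT and 2.41 ± 0.442 in KO. Both ratios overlapped between the groups. Psmb9 was at 22.9, 14.4 and 22.7 CPM in WT and 22.7, 22 and 23.5 CPM in KO, and its log2 fold change of 0.19 was -0.04 without WT replicate 2 and 0.30 without WT replicate 1. Its ratio to Psmb6 was 0.287, 0.189 and 0.318 in WT and 0.345, 0.326 and 0.336 in KO, so that the KO libraries were all above the WT libraries. The lowest ratio was that of WT replicate 2, and the nearest values, 0.318 and 0.326, were close. Thus in libraries of both groups Psmb8 and Psmb10 exceeded their partners per kb, and Psmb9 did not. The size of these ratios depends on the annotated exon lengths and is no measure of the make-up of the particle. Psmb10 has 1270 bases of exon and Psmb7 3421, and their mean levels were 36.2 and 31.9 CPM in WT and 33.8 and 27.8 CPM in KO. Psmb5 shares much of its sequence with other genes, as described below, so its ratio is uncertain.

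The genes of the 19S particle had a median close to that of the core. Of the 20 Psmc and Psmd genes, 18 had a log2 fold change below 0, with a median of -0.13, 1 had an unadjusted p under 0.05 (10.3% of all genes) and 6 had groups that did not overlap, KO lower (9.2% of all genes). Their summed level was 880, 786 and 894 CPM in WT and 772, 772 and 812 CPM in KO. The ratio of the 19S sum to the 20S sum was 1.77, 1.73 and 1.70 in WT and 1.77, 1.73 and 1.73 in KO. The ratio thus overlapped between the groups. Without WT replicate 2 the 19S median was -0.23.

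All 6 ATPase genes, which form the ring that unfolds substrates, had a log2 fold change below 0, from -0.17 to -0.05, and in none of them were the groups separate. Without WT replicate 2 they ran from -0.26 to -0.17. Psmc1, the most abundant of the ATPase genes per kb, was at 77.2, 65.5 and 87.0 CPM in WT and 67.0, 70.6 and 72.6 CPM in KO. WT replicates 2 and 3 were its lowest and highest libraries, and its log2 fold change was -0.13 (SE 0.14, adjusted p = 0.753 from edgeR), or -0.26 without WT replicate 2 and -0.05 without WT replicate 3.

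The 11 non-ATPase genes had a median of -0.15, and the separation lay in the genes of the lid, the part of the 19S particle that holds the deubiquitinase. Psmd12 (ENSMUSG00000020720, chromosome 11, 107479484 to 107504362, GRCm38), a scaffold subunit of the lid, was at 29.8, 29.6 and 29.8 CPM in WT and 23.8, 22.8 and 24.7 CPM in KO. The WT libraries were almost equal, and the highest KO library lay well below them. Its log2 fold change was -0.32 (SE 0.11, 95% interval -0.58 to -0.07), with an unadjusted p of 0.0198 and an adjusted p of 0.406 in edgeR's test, and it lay between -0.36 and -0.32 with each library left out in turn. Its unadjusted p in edgeR's test was not under 0.05 without KO replicate 1 or without KO replicate 2. The same held with total counts and with no low-count filter. Psmd13 (ENSMUSG00000025487, chromosome 7, 140881968 to 140898643), a neighbour of it in the lid, was at 31.7, 32.6 and 31.7 CPM in WT and 26.4, 24.6 and 28.6 CPM in KO. Its groups were separate as well, with a log2 fold change of -0.27 (SE 0.12, unadjusted p = 0.0502, adjusted p = 0.485 from edgeR). Psmd7, the partner of the deubiquitinase and the most abundant lid gene per kb, was at 61.5, 58.5 and 66.6 CPM in WT and 59.1, 55.9 and 53.0 CPM in KO, with overlapping groups and a log2 fold change of -0.15 (SE 0.12), or -0.23 without WT replicate 2.

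The lid was looked at as a group of Psmd genes after these values were seen. Of its 8 Psmd genes (Psmd3, Psmd6, Psmd7, Psmd8, Psmd11, Psmd12, Psmd13 and Psmd14), 7 had a log2 fold change below 0, with a median of -0.25, and 5 had groups that did not overlap, against 9.2% of all genes with KO lower. Psmd14, which encodes the deubiquitinase, was at 26.3, 27.3 and 22.8 CPM in WT and 22.7, 19.8 and 22.2 CPM in KO. For Psmd14 the groups nearly touched, at 22.8 CPM in WT replicate 3 and 22.7 CPM in KO replicate 1. Psmd6 was at 27.3, 24.7 and 27.4 CPM in WT and 20.2, 22.9 and 23.5 CPM in KO, and Psmd11 at 36.0, 35.3 and 40.3 CPM in WT and 32.7, 30.3 and 30.8 CPM in KO. The exception was Psmd3, at 43.6, 38.0 and 37.3 CPM in WT and 43.0, 40.6 and 40.6 CPM in KO, for a log2 fold change of 0.06 (SE 0.12) that ran from -0.01 to 0.13 with each library left out. The summed level of the 8 Psmd genes of the lid was 304, 295 and 309 CPM in WT and 279, 262 and 270 CPM in KO. The groups were separate in this sum, WT replicate 2 included. Sem1, a lid subunit without a Psmd name, was listed with the associated factors and is not in the sum. Sem1 was at 47.0, 43.5 and 49.4 CPM in WT and 38.4, 49.2 and 43.6 CPM in KO, with overlapping groups. Its log2 fold change was -0.09 (SE 0.14), or -0.21 without KO replicate 2 and -0.03 without KO replicate 1. The 3 genes Psmd1, Psmd2 and Psmd4, which encode scaffolds and a ubiquitin receptor of the base, summed to 199, 164 and 197 CPM in WT and 182, 171 and 182 CPM in KO, at a median log2 fold change of -0.04. The difference between lid and base was not tested, since the lid was chosen on these values.

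**Figure D2:**
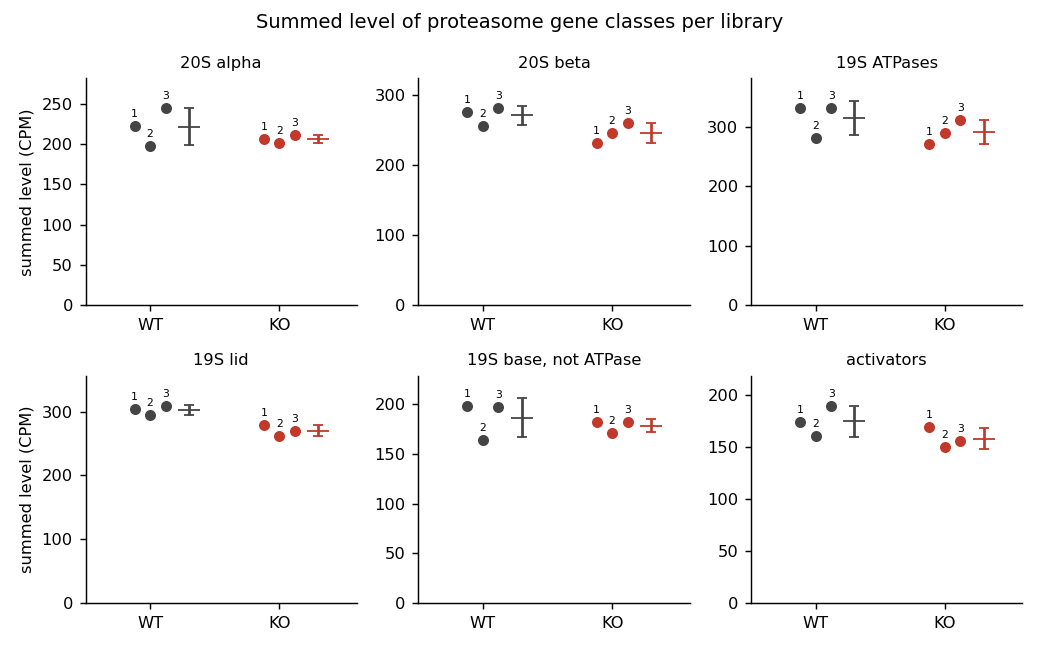
Summed CPM (y axis, from 0) of the genes of 6 classes is drawn for each library as a point with its replicate number, with the mean and SD (n = 3) of each group beside the points. In the panel of the 19S lid the WT libraries (295 to 309 CPM) and the KO libraries (262 to 279 CPM) are apart, and in the other 5 panels WT replicate 2 lies within or below the KO range.

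The assembly chaperones of the 19S base did not move together. Psmd10 (gankyrin) had a log2 fold change of -0.24 with groups that did not overlap, from 10.1 to 11.2 CPM in WT and from 7.91 to 9.67 CPM in KO. Psmd5 had -0.19, or -0.09 without WT replicate 3, and Psmd9 0.07, or -0.06 without KO replicate 2 and 0.15 without KO replicate 1, both with overlapping groups.

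The activators are caps that open the core without ubiquitin. Psme1 and Psme2 encode the alpha and beta subunits of PA28, which interferon induces, Psme3 encodes the nuclear PA28 gamma, and Psme4 encodes PA200. The 5 Psme genes had a median log2 fold change of -0.13, and 4 were below 0. Psme3 was at 40.4, 47.0 and 41.7 CPM in WT and 37.2, 33.5 and 38.0 CPM in KO. All its KO libraries were below all its WT libraries, with a log2 fold change of -0.25 (SE 0.12, adjusted p = 0.527 from edgeR). Psme1 was at 69.2, 63.7 and 81.6 CPM in WT and 66.1, 63.4 and 66.0 CPM in KO. Psme2 was at 23.0, 16.6 and 25.7 CPM in WT and 22.7, 18.2 and 17.2 CPM in KO. Both overlapped between the groups, with log2 fold changes of -0.13 (SE 0.14) and -0.17 (SE 0.20), and without WT replicate 2 these were -0.25 and -0.37, without WT replicate 3 -0.05 and -0.06. The ratio of Psme2 to Psme1 per kb was 0.379 ± 0.0463 (SD, n = 3) in WT and 0.372 ± 0.0533 (SD, n = 3) in KO. Psme4 was at 37.0, 31.0 and 36.1 CPM in WT and 38.4, 30.8 and 30.7 CPM in KO, for a log2 fold change of -0.06 (SE 0.14) that ran from -0.20 without KO replicate 1 to -0.01 without KO replicate 3. Psme2b, a retrocopy of Psme2, was at 2.08 to 4.64 CPM in WT and 3.73 to 4.38 CPM in KO, for a log2 fold change of 0.14 that was -0.18 without WT replicate 2 and 0.32 without WT replicate 3.

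The inhibitor and the chaperones of 20S assembly had a median log2 fold change of -0.01. Psmf1, which encodes the inhibitor PI31, was at 16, 15.4 and 13.1 CPM in WT and 16.2, 17.9 and 16.1 CPM in KO. It was the gene whose KO libraries were all above its WT libraries, by as little as 16.1 against 16 CPM, and its log2 fold change was 0.18 (SE 0.14, adjusted p = 0.649 from edgeR), or 0.08 without WT replicate 3 and 0.10 without KO replicate 2. Psmg2, a chaperone of the alpha ring, was at 3.72, 4.70 and 5.06 CPM in WT and 4.34, 6.81 and 5.24 CPM in KO, with overlapping groups and a log2 fold change of 0.29 (SE 0.23), or 0.07 without KO replicate 2 and 0.16 without WT replicate 1. Psmg1, Psmg3 and Psmg4 had log2 fold changes of -0.01, -0.25 and -0.25, all with overlapping groups. That of Psmg3 ran from -0.45 without KO replicate 1 to -0.08 without KO replicate 2, that of Psmg4 was -0.16 without KO replicate 1, and that of Psmg1 ran from -0.07 to 0.03. Psmc3ip was at 1.81, 1.70 and 1.45 CPM in WT and 1.38, 2.61 and 2.00 CPM in KO, for a log2 fold change of 0.27 (SE 0.32). Without KO replicate 2 it was 0.00035, and without KO replicate 1 it was 0.45.

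Levels of the 47 genes spanned a wide range per kb of exon, with a median of 10.1 CPM per kb. The highest means over the 6 libraries were those of Psmb1 (48.6 CPM per kb), Psmc1 (48.3), Psma2 (37.7) and Psmd7 (37.0), and the lowest those of Psma8 (0.472), Psmg3 (0.836), Psmc3ip (1) and Psmd9 (1.97). The order of Psmb1 and Psmc1 is not settled by these libraries, since Psmc1 was at 50.4 CPM per kb in WT and 46.2 in KO and Psmb1 at 49.2 and 48.0. Subunits that the particle holds in equal number differed within a ring in CPM per kb, a measure that depends on the annotated exon length. The beta genes ran from 5.43 CPM per kb in Psmb3 to 48.6 in Psmb1, and the ATPase genes from 7.35 in Psmc2 to 48.3 in Psmc1. Without division by length the genes at these ends lay closer together. Psmb3 (2300 bases of exon) and Psmb1 (1036 bases) had WT means of 13.3 and 51.0 CPM. Psmc2 (5031 bases) and Psmc1 (1518 bases) had WT means of 38.2 and 76.6 CPM. Over all beta genes, however, the WT means still ran from 7.80 CPM in Psmb5 to 58.6 CPM in Psmb4. Over the ATPase genes they ran from 36.8 CPM in Psmc4 to 76.6 CPM in Psmc1. The exon length used is that of all annotated exons of a gene, so genes with long rarely used exons are set low.

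**Figure D3:**
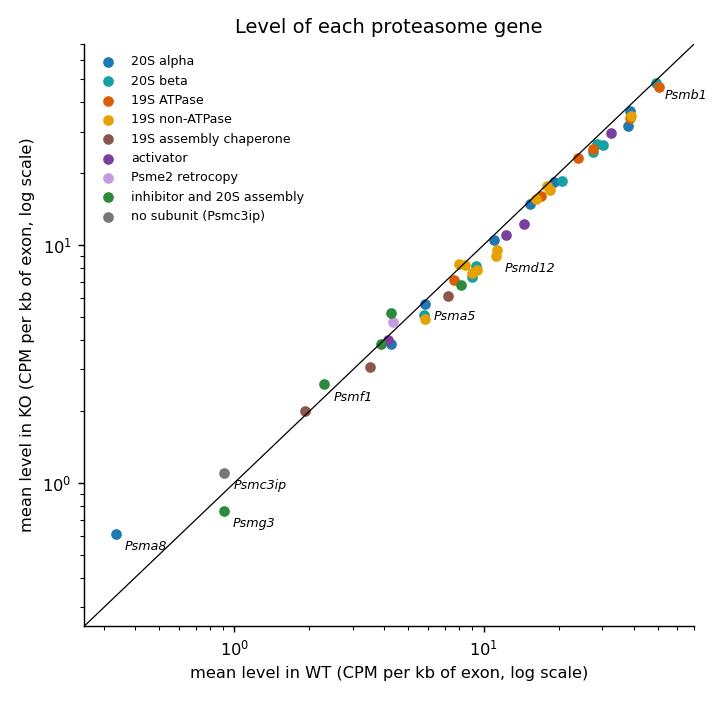
The mean level of each gene in WT (x axis) is drawn against that in KO (y axis), both in CPM per kb of exon on log scales, coloured by class, with the line of equal level. The genes lie along the line from 0.335 CPM per kb in WT for Psma8 to 50.4 for Psmc1, and those with groups apart, such as Psmd12, lie only slightly off it.

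The counting, which kept only reads with a unique alignment that overlapped a sole gene, can lower some of these levels, since reads that fit a pseudogene or another transcript as well were not counted. To gauge this, every stretch of 50 bases of a gene's annotated transcripts was looked up, on both strands, in the transcripts of all other genes. A stretch shared only with an antisense gene at the same place is included, although the counting by strand keeps its reads. The share can therefore exceed the part of the reads that was lost. It can also fall short of that part, since copies outside annotated transcripts and stretches that differ by a base were not found. In 20 of the 47 genes no stretch was shared, and in 11 more than 10% were. The share was 69.3% in Psme2b, 54.1% in Psmb5, 50% in Psma5, 28.3% in Psme2 and 24.9% in Psmd9. Psmb5 and Psma5 stood at 8.15 and 5.73 CPM per kb, below the median of the 47 genes, and their true level cannot be read from these counts. Psmb5 also shares 12.5% of its exon bases with another gene on the same strand. Of the 11 genes whose KO libraries were all lower, 6 (Psma6, Psmb2, Psmd6, Psmd10, Psmd12 and Psme3) had no shared stretch. The share in the other 5 was 17.8% in Psmb3, 9.43% in Psmd11, 8.23% in Psmd13, 1.05% in Psmb6 and 0.854% in Psmd14.

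**Figure D4:**
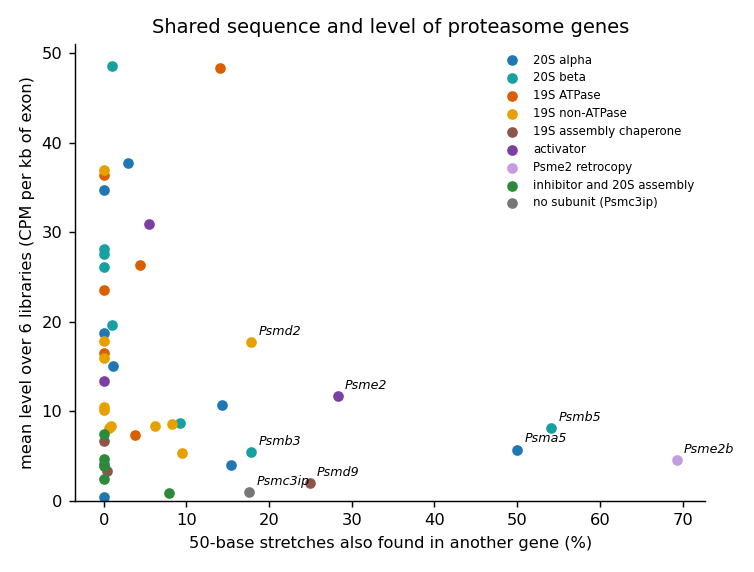
The share of a gene's 50-base stretches that are also found in another gene (x axis, percent) is drawn against its mean level over the 6 libraries (y axis, CPM per kb of exon), coloured by class. Psme2b, Psmb5 and Psma5, with 69.3%, 54.1% and 50%, all lie below 10 CPM per kb.

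Genes that work with the proteasome were then described from lists chosen by function. Of 12 tested genes for associated factors, 10 had a log2 fold change below 0, with a median of -0.10, and 0 passed the threshold over all genes. Pomp, the maturation factor of the core, was at 68.6, 66.4 and 80.8 CPM in WT and 60.7, 57.9 and 60.1 CPM in KO, with separate groups and a log2 fold change of -0.27 (SE 0.13, adjusted p = 0.508 from edgeR). Zfand2a, an arsenite-inducible factor that binds the 19S particle, was at 26.1, 26.4 and 27.7 CPM in WT and 21.7, 23.3 and 21.8 CPM in KO (log2 fold change -0.26, unadjusted p = 0.0482, adjusted p = 0.482, edgeR). Pomp was named after its values were seen.

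All 7 shuttle receptors, which carry ubiquitin-tagged proteins to the proteasome, had a log2 fold change below 0, with a median of -0.15. Of them, 3 had separate groups, against 9.2% of all genes with KO lower, and 0 passed over all genes. Ubqln4 was at 37.1, 29.4 and 30.9 CPM in WT and 26.1, 26.8 and 25.8 CPM in KO (log2 fold change -0.31, unadjusted p = 0.0482, adjusted p = 0.482, edgeR), and its log2 fold change was -0.20 without WT replicate 1. The 6 genes of ubiquitin and its E1 enzymes had a median of -0.16, with 5 below 0, overlapping groups in each and 0 at an unadjusted p under 0.05 in edgeR's test.

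The NRF1 axis holds the transcription factors of the proteasome genes and the enzymes that process NRF1. Of its 13 genes, 8 had a log2 fold change below 0 and 5 above 0, with a median of -0.09. Of the 13, 1 passed over all genes, where 0.109% of all genes did. The groups were separate in 5 with KO lower (9.2% of all genes) and in 1 with KO higher (8.59%). Nfe2l1, which encodes NRF1 itself, had overlapping groups, at 267, 278 and 305 CPM in WT and 306, 294 and 287 CPM in KO (log2 fold change 0.06, SE 0.16, and 0.01 to 0.10 with each library left out). Maff, a small MAF partner, fell from 50.5, 52.8 and 47.2 CPM in WT to 18.7, 17.8 and 21.8 CPM in KO, for a log2 fold change of -1.37 (SE 0.13, adjusted p = 0.0188 from edgeR). Without a KO library its log2 fold change was -1.46 to -1.34, and its adjusted p in edgeR was 0.146, 0.128 and 0.159 without KO replicates 1, 2 and 3. The other small MAF genes had separate groups but did not pass. Mafg was at 38.2, 41.1 and 42.1 CPM in WT and 29.5, 29.8 and 32.8 CPM in KO (log2 fold change -0.40, adjusted p = 0.351 from edgeR), and Mafk was at 118, 100.3 and 112 CPM in WT and 85.4, 67.5 and 83.3 CPM in KO (log2 fold change -0.48, adjusted p = 0.367 from edgeR). Nfe2l2, which encodes NRF2, was at 83.7, 88.5 and 77 CPM in WT and 62.5, 68.9 and 70.1 CPM in KO, for a log2 fold change of -0.31 (adjusted p = 0.474 from edgeR). Nfe2l3, which encodes the related NRF3, went the other way. It was at 4.75, 7.69 and 5.95 CPM in WT and 14.5, 21.6 and 12.8 CPM in KO, for a log2 fold change of 1.41 (SE 0.26) and an adjusted p of 0.153 in edgeR's test and 0.000629 in DESeq2.

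The class I presentation genes, whose peptides the proteasome supplies, had a median log2 fold change of 0.19 over 11 genes, Psmb8 and Psmb9 included, and 0 passed. Tap1, a subunit of the peptide transporter, was at 6.61, 14.2 and 16.4 CPM in WT and 27.8, 19.8 and 19.1 CPM in KO, for a log2 fold change of 0.85 (unadjusted p = 0.0334, adjusted p = 0.462 from edgeR), or 0.53 without WT replicate 1. The sum of this list was 1382, 3276 and 2434 CPM in WT and 3583, 3048 and 3027 CPM in KO. It was lowest in WT replicates 1 and 3, which also had the lowest alveolar type II sums. In KO the orders differed, since this sum was highest in replicate 1 and the alveolar type II sum in replicate 2. A link between these sums was not tested.

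The heat shock genes, the other arm of protein quality control, stood far from the proteasome genes in size of change. All 14 had separate groups and were lower in KO (9.2% of all genes), 6 passed over all genes (0.109% of all genes), and their median log2 fold change was -1.28 against -0.12 for the 47 proteasome genes. Hsph1, a cochaperone of HSP70, fell from 97.9, 86.2 and 90.9 CPM in WT to 17.3, 22.8 and 21.0 CPM in KO (log2 fold change -2.17, SE 0.15, adjusted p = 0.0099 from edgeR), and without KO replicates 1, 2 and 3 its adjusted p in edgeR was 0.0924, 0.0547 and 0.159. The log2 fold changes ran from -3.37 to -0.24 in the heat shock list and from -0.32 to 0.90 in the proteasome genes. The upper end of the latter is Psma8, which was below the floor of 3 reads in WT replicate 2.

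**Figure D5:**
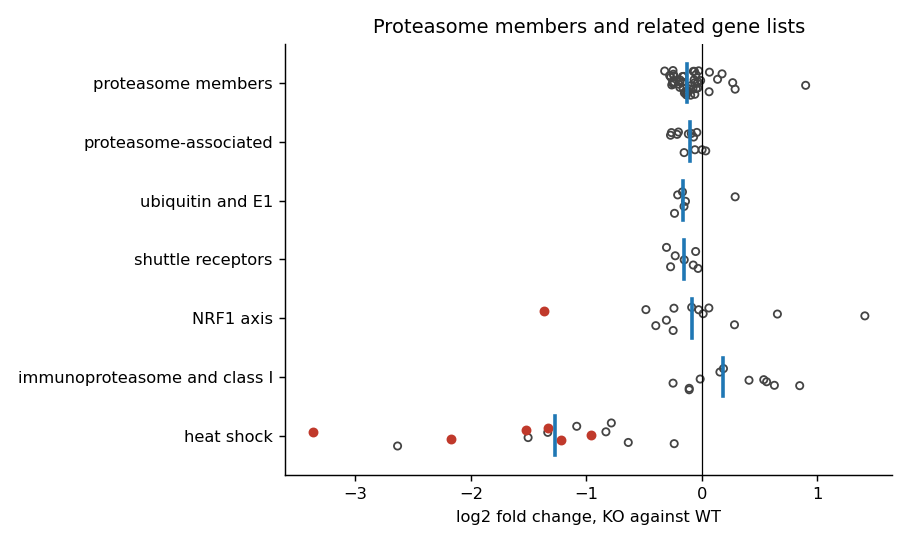
Log2 fold changes (x axis, KO against WT) of the 47 proteasome genes and of 6 related lists are drawn as points, filled in red where the adjusted p was under 0.05 in edgeR's test, with the median of each list as a blue bar. The proteasome, associated, ubiquitin and shuttle lists lie close to 0, with medians from -0.16 to -0.10, while the heat shock list has a median of -1.28.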

How the data were processed

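The authors deposited raw counts as whole numbers for each gene and library, from 3 WT and 3 KO libraries of strand-specific polyA RNA. Per the file headers, featureCounts 2.0.0 counted uniquely aligned reads on the Ensembl release 84 annotation of GRCm38, on the reverse strand, which separates antisense genes, and dropped reads that fell in several genes. The submitters' processing notes name STAR 2.5.4b, bcl2fastq 2.18 and Subread 2.0.0. Kallisto TPM values and the hg38 genome, which the methods mention too, were not used here. Symbols came from GENCODE's annotation of the same build (47224 of 47729 genes).

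The counts of all genes were tested with edgeR 4.0.16 in R 4.3.3 (filterByExpr, TMM, glmQLFit and glmQLFTest, genotype as the only term), and p-values were adjusted over 14625 genes (Benjamini-Hochberg, threshold 0.05). CPM use TMM-scaled library sizes, whose factors were 0.874 to 1.37. Each SD is over 3 libraries. No pair of libraries held identical counts. The scripts were tested on simulated data. The floor of 3 reads covers counting error only, whereas the 95% intervals of log2 fold changes come from edgeR's standard errors and include the spread between the libraries.

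The members and the lists were chosen with earlier results of these data known, so counts and medians over them are descriptions. Values in each library are given for members with an unadjusted p under 0.05 and separate groups, the 4 highest and 4 lowest log2 fold changes, the 4 highest levels per kb, the catalytic subunits and the activators, and for genes of related lists with an unadjusted p under 0.05. Psma6 and Psmd13 fall under this rule, whereas Psmb2, Psmb3, Psmb9, Psmd3, Psmd6, Psmd11, Psmd14, Sem1, Pomp and Nfe2l1 were shown after their values were seen. Of the heat shock list the gene with the lowest p is shown, and marker lists are given by their sums. Lists of T cell, macrophage, neutrophil and mesenchyme markers were looked at as well. Their summed levels overlapped between the groups in 3 of the 4 lists, and the 5 tested T cell markers summed to 3.97 to 9.69 CPM in WT and 10.8 to 14.4 CPM in KO.

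The alternatives were DESeq2 1.42.0, limma-voom (limma 3.58.1), RLE, upper-quartile and total-count scaling, scaling without mitochondrial genes, no filter, at least 10 counts in every library, a robust fit, glmQLFit with legacy set to FALSE, the replicate number as a block, and each of the 6 libraries left out in turn.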

Additional observations from a re-analysis of the deposited data

How the results depend on the processing

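No proteasome gene passed an adjusted p of 0.05 in any of the 17 alternatives. The lowest adjusted p of any of them was 0.146, for Psmd12 without WT replicate 2. Of 798 log2 fold changes of single members under these alternatives, 18 changed sign and 0 crossed the threshold. Psma8 was not tested with at least 10 counts in every library.

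The number of members with an unadjusted p under 0.05 was 1 as reported. It was 2, with Psmd13 added to Psmd12, under limma-voom, RLE scaling, upper-quartile scaling, scaling without mitochondrial genes, at least 10 counts in every library and the robust fit, and 0 with total counts and with no low-count filter. With each library left out it ran from 0 to 5, the 5 without WT replicate 2 being Psma6, Psmb7, Psmd6, Psmd11 and Psmd12. The share of all genes at this cut was counted only for the fit as reported, where it was 10.3%. The member counts in the other settings thus have no share of all genes to be set against and show no gain in the members. DEGs over all genes, 16 as reported, numbered 187 with DESeq2, 26 with limma-voom, 26 with RLE, 31 with upper-quartile scaling, 123 with total counts, 152 with no filter, and 0 to 791 with each library left out, highest without WT replicate 2 and 0 without any KO library.

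With total counts the median over all genes shifted to -0.13, and the medians were -0.29 for all members, -0.30 for the 19S genes, -0.17 for the inhibitor and assembly genes, -0.42 for the lid, -0.27 for the associated factors, -0.27 for the NRF1 axis, -0.34 for ubiquitin and E1, -0.34 for the shuttle receptors and -1.45 for the heat shock genes. The members' median minus that of all genes was -0.16 both there and as reported. The log2 fold changes that changed sign with total counts were those of Psmd3 (-0.13), Psmd9 (-0.088), Psme2b (-0.054), Psmf1 (-0.015) and Psmb9 (-0.0020). With limma-voom, Psma5 (0.020) and Psmg1 (0.0095) did.

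With each library left out, the median ran from -0.21 to -0.06 for all members, from -0.21 to -0.06 for the 20S core, from -0.23 to -0.090 for the 19S genes, from -0.22 to -0.05 for the activators, from -0.072 to 0.032 for the inhibitor and assembly genes, and from -0.26 to -0.23 for the lid, a group added after the data were seen. For the related lists the ranges were 0.15 to 0.26 (class I), -0.20 to -0.068 (associated), -0.24 to -0.054 (NRF1 axis), -0.27 to -0.11 (ubiquitin and E1), -0.26 to -0.081 (shuttle receptors) and -1.37 to -1.23 (heat shock). The members that changed sign ran from -0.14 to 0.023 (Psmd4), -0.0055 to 0.13 (Psmd3), -0.058 to 0.15 (Psmd9), -0.18 to 0.32 (Psme2b), -0.21 to 0.013 (Psma1), -0.27 to 0.20 (Psma5), -0.17 to 0.0043 (Psmc6) and -0.072 to 0.032 (Psmg1), and Psmb9 from -0.040 to 0.30.

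The groups share replicate numbers 1 to 3. Same-numbered libraries deviated from their group means with correlations of -0.10, 0.32 and 0.02, and not every library correlated best with its own number, so the numbers are not read as pairs. With the replicate block, 0 DEGs and 0 members passed, Maff and Hsph1 had adjusted p-values of 0.125 and 0.0905 (edgeR), 1 member had an unadjusted p under 0.05, and the median of all members was -0.12. Except where a value above shows otherwise, the cause of these moves was not tested.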
